A study of Macaca mulatta with 60 samples.

Results

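The left atrium (LA) of late gestation (LG) rhesus monkey fetuses was compared between 3 fetuses whose dams received bisphenol A (BPA) and 3 control fetuses, which are 6 of the 60 arrays in the series. The members were chosen by their labels alone, as LA samples of fetuses 10, 11 and 12 (LG BPA) and of fetuses 7, 8 and 9 (LG control), and all 26149 transcripts on the array were considered. The series as a whole covers both ventricles, both atria and the biceps femoris muscle (BFM). It also holds a second set of BPA exposed and control fetuses, from early gestation (EG). A sample number was taken to be the same fetus in every tissue, which makes 12 female fetuses, although the labels do not state this. Dosing in LG was oral and daily, from day 100 ± 2 of gestation until term. Exposed dams took deuterated BPA at 400 µg/kg body weight, in ethanol on fruit, and control dams took the fruit and ethanol without BPA. LG tissue was taken after vaginal delivery. EG exposure ran from day 50 to day 100 ± 2, and EG fetuses were removed by caesarian section. The study also reports higher maternal serum BPA in EG than in LG. Age and mode of delivery, and for the effects of BPA also the serum level, cannot be told apart between the windows. LG controls and LG BPA fetuses therefore shared species, sex, window, vehicle and mode of delivery, and each was a fetus of its own, so the spread between replicates is a spread between animals. Little atrial tissue was available, and LA cDNA was amplified by PCR before it was labelled and hybridized on a custom NimbleGen array, with all 12 LA samples on a slide of their own.

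The left atrium receives oxygenated blood from the lungs after birth, and its muscle carries the alpha isoform of myosin heavy chain. A piece of atrial wall also holds endothelium, fibroblasts, nerve fibres and the blood that remained in it, so its RNA is a mixture of these sources. BPA is a plastics monomer with weak activity at oestrogen receptors that crosses the placenta, which is why its effect on fetal organs was examined. In bulk tissue of this kind, fewer cells of a type and less RNA per cell cannot be told apart.

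The values are log2 levels after robust multi-array averaging (RMA), so a difference of 1 is a 2-fold difference in signal. On the 12 LA arrays the median level was 6.91 to 7.02, and each array's median correlation with the others across transcripts was 0.968 to 0.974, except for fetus 3, an EG control, which stood apart at 0.958. Its largest correlation with any LA array was 0.963, against 0.975 or more for the other 11. Fetus 3 enters the LG effect through the shared estimate of spread and through the choice of transcripts tested. That choice was made over all 12 LA arrays and was kept when a fetus was left out. Fetus 3 is also 1 of 3 controls in the EG effect and in the comparisons between windows, which are given with and without it. Myosin-6, the alpha myosin heavy chain of atrial muscle, was near the top of the scale in all 6 LG samples (14.48 to 14.76), as the tissue label implies. The potassium channel KCNA5, which carries a repolarizing current of atrial muscle, lay between 8.75 and 9.29. Both were too steady to enter the tests.

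Transcripts whose interquartile range over the 12 LA arrays was below 0.5 were set aside, which left 7903. Following the study's criteria, a transcript was called when its log2 fold change (BPA minus control) was at least 1 in size and its unadjusted limma p was at most 0.01. By these criteria 86 of the 7903 transcripts (1.09%) were called, 49 higher after BPA (0.62%) and 37 lower (0.468%). The balance of directions depended on single fetuses, since there were 31 higher and 55 lower without control 8, 49 and 63 without control 9, and 96 and 46 without BPA fetus 11, which brought the total to 142. Without fetus 3 there were 105 (55 higher and 50 lower), and 83 of the 86 were among them. After Benjamini-Hochberg adjustment none passed 0.05 in limma, where 432 transcripts (5.47%) had an unadjusted p of at most 0.05. The adjusted p of the 86 called transcripts ran from 0.707 to 0.847. In 76 of the 86 the 3 BPA fetuses lay wholly above or wholly below the 3 controls, as they did for 10.6% of all transcripts tested. For these 76 the exact two-sided permutation p was 0.1, the smallest that 3 against 3 allows, and it was 0.2 for the others. The median fold change over all transcripts tested was -0.0038. At the edge of the p criterion, the small nucleolar RNA SNORD41 (fold change 1.70) lay just inside with an unadjusted limma p of 0.00997 and an exact p of 0.1, and ENSMMUT00000049638 (-1.12) lay just outside with an unadjusted limma p of 0.01005. On the fold criterion the nearest inside was a signal recognition particle RNA at 1.08 and the nearest outside ENSMMUT00000037689 at -0.998.

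**Figure D1:**
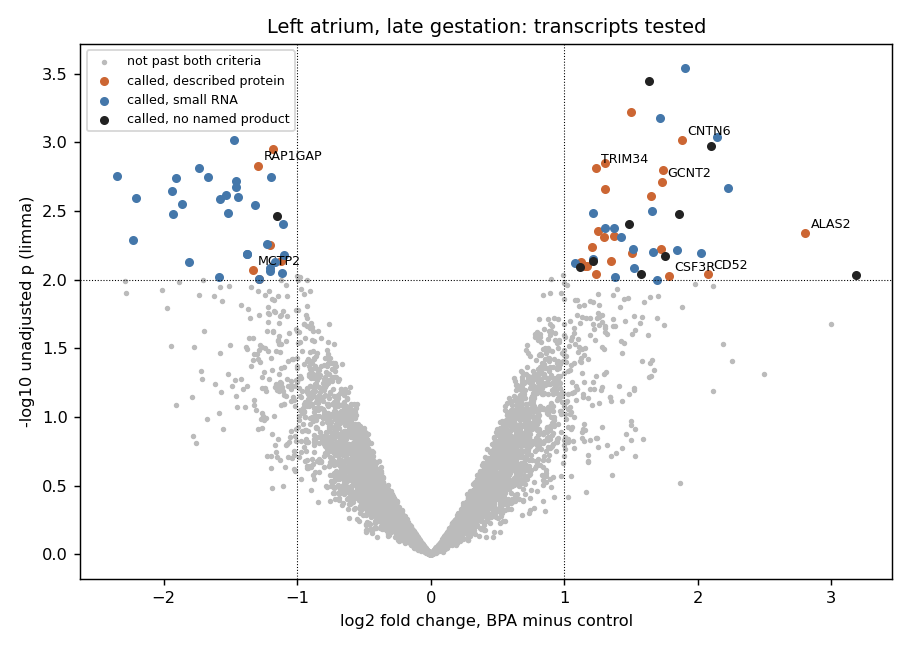
Each point is 1 of the 7903 transcripts tested in LA, with the log2 fold change (mean of 3 LG BPA fetuses minus mean of 3 LG control fetuses) on the horizontal axis and -log10 of the unadjusted limma p on the vertical axis, and dotted lines at the call criteria. The 86 called points are coloured by kind, and called small RNAs lie mostly to the left (30 lower, 18 higher), called described proteins mostly to the right (22 higher, 6 lower).

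Transcripts were named by the descriptions in the study's own list for this comparison, which describes 85 of the 86. That list was selected on the same 6 samples, so the count of its members in a direction is not independent evidence of that direction. It holds 28 described proteins, 9 proteins without a name and 48 small or other non-coding RNAs. The described proteins were mostly higher after BPA (22 of 28), whereas the non-coding RNAs were mostly lower (30 of 48). For comparison, the study's lists for other tissues or for EG describe 174 further proteins, of which 65 varied enough to be tested in LA. Since the LG LA list holds all 85 described calls, transcripts taken only from the other lists are uncalled by construction, here and below, and their values show what lay outside the criteria. Of these 65, 2 had an unadjusted limma p of at most 0.05, against 5.47% of all transcripts tested, and their median fold change was 0.17.

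The largest rise among described proteins was that of ALAS2, the red cell enzyme that opens haem synthesis. Its levels were 6.49, 7.80 and 8.89 in control fetuses 7, 8 and 9 and 12.91, 9.42 and 9.26 in BPA fetuses 10, 11 and 12. The groups did not overlap, but fetus 10 stood far above both other BPA fetuses, and control 9 came within 0.4 of fetus 12. The log2 fold change was 2.81 (SE 0.84, limma adjusted p = 0.836), and without fetus 10 it was 1.62 and no longer called, as it also was not without control 7 or 8. KLF1, a transcription factor of red cell precursors and the other erythroid transcript named in the study's lists, had a fold change of 0.50 (SE 0.50, limma adjusted p = 0.955). In KLF1 too fetus 10 was the highest (6.87), while fetuses 11 and 12 (4.26 and 4.85) lay among or below the controls (4.73 to 4.91). High levels also occurred without BPA. Fetus 3, an EG control, had ALAS2 at 9.93 in LA, above BPA fetuses 11 and 12. In the right atrium, normalized separately, fetus 3 was at 12.33 for ALAS2 and 6.95 for KLF1. No other right atrium exceeded 9.46 and 5.41.

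A bright transcript described only as protein coding (ENSMMUT00000033373) had a similar order of fetuses. Its levels were 11.62, 12.43 and 13.24 in the controls and 14.54, 13.62 and 13.59 in the BPA fetuses, again with fetus 10 highest and control 9 the nearest control. The fold change was 1.49 (SE 0.44, limma adjusted p = 0.794).

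Transcripts linked to white blood cells and innate immunity made up the largest group of described proteins. Of 13 such transcripts in the list, 12 were higher after BPA and 1 was lower, and the fold changes of the 12 ran from 1.13 to 2.08 with a median of 1.28. Several of them are made by many cell types (MHC class I, cathepsin S, the interferon-induced TRIM34 and complement factor D, which fat cells secrete), so the group is not a pure marker set. CD52, a surface glycoprotein of lymphocytes and monocytes, had levels of 7.56, 8.55 and 9.10 in the controls and 12.40, 9.40 and 9.64 in the BPA fetuses. The fold change of CD52 was 2.08 (SE 0.69, limma adjusted p = 0.847). CSF3R, the receptor through which G-CSF drives neutrophil production, was at 4.61, 4.85 and 4.20 in the controls and at 8.13, 4.89 and 5.98 in the BPA fetuses, a fold change of 1.78 (SE 0.60, limma adjusted p = 0.847). In both genes the groups were separate, yet fetus 11 lay within 0.4 of the highest control and fetus 10 more than 2 above the next BPA fetus. With 1 LG fetus left out at a time, CD52 ran from 1.12 to 2.62 and CSF3R from 0.88 to 2.50. Both lost the call without control 7, control 8 or fetus 10, and CSF3R also without control 9 or fetus 12.

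FCGR2B, the inhibitory receptor for immunoglobulin G, gave 5.71, 6.28 and 6.48 in the controls and 9.02, 6.91 and 7.50 after BPA (fold change 1.65, SE 0.45). AOAH, an enzyme of phagocytes that detoxifies bacterial lipopolysaccharide, gave 4.52, 4.36 and 5.33 in the controls and 7.98, 5.30 and 6.11 after BPA (1.73, SE 0.54). The AOAH groups overlapped, since fetus 11 lay just below control 9, and fetus 10 was again the highest for both genes. With 1 LG fetus left out at a time, FCGR2B ran from 1.05 to 2.10 and AOAH from 0.97 to 2.31. Others were more even across the BPA fetuses. MHC class I antigen was at 5.25, 4.62 and 4.83 in the controls and at 6.89, 6.45 and 6.60 after BPA, so that the groups were more than 1 apart (1.74, SE 0.45). TRIM34 was at 5.76, 5.61 and 5.72 against 6.85, 6.93 and 7.02 (1.24, SE 0.32). CFD, cathepsin S (CTSS, a protease of antigen presentation), CSF2RB (the shared receptor chain for GM-CSF, IL-3 and IL-5), the adaptors LCP2 and APBB1IP of lymphocyte and platelet signalling, and a CD177-like fragment rose by 1.13 to 1.30, all without overlap. PSTPIP2, which restrains macrophages and osteoclasts, was the exception, at 7.09, 8.04 and 7.63 in the controls and 5.99, 6.77 and 6.16 after BPA (-1.28, SE 0.43).

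**Figure D2:**
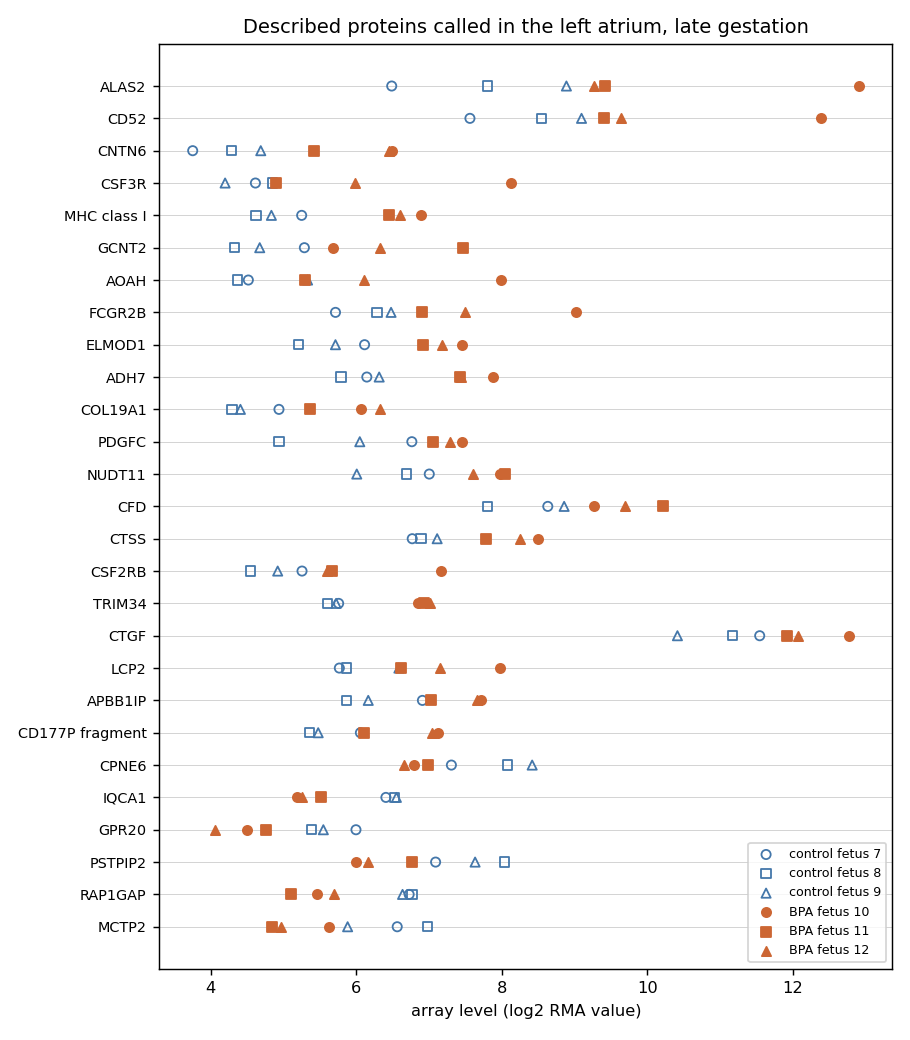
Array levels (log2 RMA values) of 27 of the 28 described proteins called in LG LA, with a row for each transcript and a symbol for each fetus, open for the 3 controls and filled for the 3 BPA fetuses. Fetus 10 (filled circle) is the highest of the 6 for most of the proteins that rose, with ALAS2 (12.91) and CD52 (12.40) far to the right of the other samples.

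The contribution of fetus 10 was uneven between groups of transcripts. It had the highest of the 6 levels for 10 of the 12 white blood cell transcripts that rose and for 17 of the 22 described proteins that rose, but for 4 of the 18 non-coding RNAs that rose. Among those 18 fetus 12 was the highest for 10, and over all 49 rises fetus 10 was the highest for 28. The mean level over the 12 transcripts was 6.07, 5.88 and 6.23 in control fetuses 7, 8 and 9 and 8.25, 6.94 and 7.35 in BPA fetuses 10, 11 and 12. That the groups are apart follows from how the 12 were chosen. When fetus 10 was left out, 3 of the 12 were still called (median fold change 1.04), and of the 22 described proteins 7 were. Leaving out control 8 also left 3 of the 12 and 7 of the 22, while leaving out fetus 11 left 11 and 19. The calls also depended on the variance estimate, since a fit of the LG arrays alone kept 4 of the 12 and 11 of the 22, and trended and robust variances kept 7 and 17. An interquartile range of at least 1, which leaves fewer transcripts to be tested, kept 1 and 5. Whether blood retained in the atrial piece or white cells in its wall had a part in these rises was not tested.

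A second set of 13 leukocyte transcripts came from the study's lists for other tissues or for EG, without those in the LG LA list. Of these 5 varied enough to be tested in LA, 0 had an unadjusted limma p of at most 0.05, and their median fold change was 0.52. Over all 13, the mean level was 4.95, 5.12 and 5.03 in the controls and 5.36, 5.01 and 5.05 after BPA, so fetus 10 was again the highest and fetuses 11 and 12 lay within the controls. TNFSF8, a lymphocyte ligand of the TNF family, came nearest, with a fold change of 0.68 (SE 0.32, limma adjusted p = 0.869). An interferon-induced protein like IFIT1 (ENSMMUT00000011918), which is in neither set, had the largest fold change among described proteins of the other lists, 2.11 (SE 1.06, limma adjusted p = 0.869). Its levels were 4.34, 4.65 and 6.37 in the controls and 9.98, 5.68 and 6.03 after BPA, so the groups overlapped and fetus 10 stood alone. TNF itself was low in all 6 samples, at 4.26 to 5.65.

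**Figure D3:**
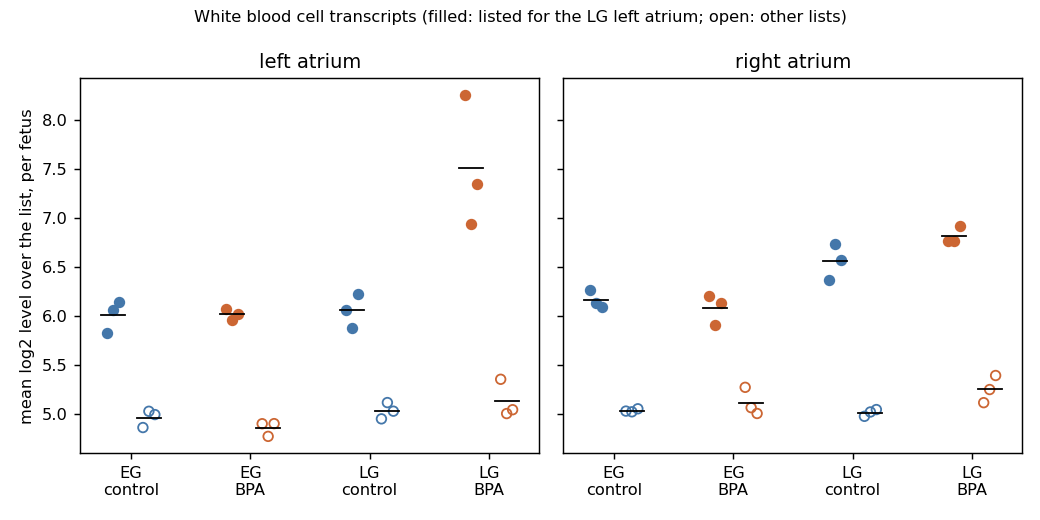
Mean log2 level over the 12 white blood cell transcripts that rose in LG LA (filled) and over 13 leukocyte transcripts from the study's other lists (open), with a point for each fetus, a bar at each group's mean, and separate panels for left and right atrium, which were normalized separately. The filled LG BPA points in LA (6.94 to 8.25) are high because the 12 transcripts were taken for being higher there, and what the panel adds is the spread between those fetuses, with fetus 10 at the top. In the right atrium LG BPA (6.77 to 6.92) and LG control (6.37 to 6.74) do not overlap but are nearer to each other.

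The 3 transcripts of growth factors and matrix in the list were higher after BPA. CTGF, a secreted protein that accompanies matrix production by fibroblasts, was at 11.55, 11.18 and 10.42 in the controls and at 12.78, 11.92 and 12.07 in the BPA fetuses (fold change 1.21, SE 0.38, limma adjusted p = 0.847). PDGFC, a growth factor for fibroblasts and smooth muscle, was at 6.76, 4.94 and 6.05 against 7.46, 7.05 and 7.29 (1.35, SE 0.43), and COL19A1, a minor collagen of basement membrane zones, at 4.94, 4.29 and 4.41 against 6.07, 5.36 and 6.32 (1.37, SE 0.41). All 3 were free of overlap, with control 8 furthest below the others for PDGFC. With 1 LG fetus left out at a time, CTGF ran from 0.89 to 1.46, PDGFC from 0.86 to 1.77 and COL19A1 from 1.17 to 1.65. All 3 lost the call without control 8, control 9 or fetus 10. Of 8 other matrix or growth factor transcripts from the study's lists, 3 were tested, limma gave 0 of them an unadjusted p of at most 0.05, and HTRA3, a protease of the extracellular space, was the highest of them at 0.52 (SE 0.45). ADAM12, a membrane metalloprotease of growing muscle and mesenchyme, had a fold change of 0.09 (SE 0.38) in LA.

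Of the 11 remaining described proteins 6 rose, of which 5 are described here. CNTN6, a neural cell adhesion molecule, had the largest of these rises, from 3.75, 4.28 and 4.69 in the controls to 6.49, 5.42 and 6.45 after BPA (fold change 1.88, SE 0.46, limma adjusted p = 0.707). GCNT2, which builds the branched I antigen of red cells and epithelia, was at 5.29, 4.33 and 4.67 against 5.69, 7.46 and 6.33 (1.73, SE 0.46), and there fetus 11 was the highest. ADH7, an alcohol dehydrogenase that also oxidizes retinol, was at 6.14, 5.79 and 6.31 against 7.88, 7.42 and 7.45 (1.50, SE 0.34), with more than 1 between the groups. ELMOD1 and NUDT11, a GTPase-activating protein and a hydrolase of diphosphoinositol polyphosphates, rose by 1.51 (SE 0.47) and 1.31 (SE 0.33) without overlap.

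The other 5 fell, and their changes were smaller than the largest rises. RAP1GAP, which switches off the small GTPase Rap1, was at 6.73, 6.77 and 6.64 in the controls and 5.46, 5.10 and 5.69 after BPA (-1.29, SE 0.33). IQCA1, an AAA domain protein of cilia, was at 6.41, 6.53 and 6.55 against 5.19, 5.51 and 5.25 (-1.18, SE 0.29). The limma adjusted p was 0.707 for both, the controls were within 0.15 of each other, and the BPA fetuses were at least 0.9 below the lowest control. MCTP2, a calcium-binding membrane protein, was at 6.56, 6.98 and 5.88 against 5.62, 4.83 and 4.96 (-1.33, SE 0.44), a narrower gap. CPNE6, a calcium-dependent phospholipid-binding protein, and GPR20, an orphan receptor, fell by 1.12 (SE 0.36) and 1.21 (SE 0.37) on the log2 scale.

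Calls of single transcripts depended on which fetuses were included. With each of the 6 LG fetuses left out in turn, 13 of the 86 transcripts passed the criteria every time, 9 higher and 4 lower, and 6 of these were described proteins (CNTN6, MHC class I antigen, ADH7, TRIM34, IQCA1 and RAP1GAP). The other 22 described proteins lost the call without at least 1 fetus.

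The transcript with the largest fold change of all (ENSMMUT00000003330) carries no description in the study's lists. Its levels were 4.48, 4.48 and 6.41 in the controls and 8.33, 10.97 and 5.61 after BPA (3.18, SE 1.06, limma adjusted p = 0.847, exact p = 0.2). The groups overlapped, since BPA fetus 12 lay below control 9, and fetus 3, an EG control, was also high at 8.92. The 9 proteins without a name comprised 8 that rose and 1 that fell, and 7 of the 9 did not overlap.

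Non-coding RNAs made up 48 of the 86 called transcripts. Most transcripts tested carry no description here, so the share of non-coding RNAs among them is unknown and no excess is read from this count. By the study's array design a small RNA has fewer probes than nearly every gene transcript, so its value rests on fewer measurements. U6, the catalytic RNA of the spliceosome, contributed 13, of which 11 were lower and 2 higher. The genome holds many near-identical copies of U6, as of Y, 7SK, 5S and signal recognition particle RNA, and probes cannot always tell copies apart, so values for a copy are uncertain. The U6 transcript with the largest fall (ENSMMUT00000050338) was at 5.56, 7.91 and 7.38 in the controls and 4.18, 4.33 and 5.31 after BPA (-2.35, SE 0.62). The U6 rise without overlap (ENSMMUT00000048869) went from 5.50, 5.35 and 5.91 to 7.82, 6.52 and 6.96 (1.51, SE 0.47). Copies of the same RNA thus lay on both sides.

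The same held for the other multi-copy RNAs. The 4 Y RNAs, small RNAs bound by the Ro protein, were evenly divided, and 1 in each direction was free of overlap, a rise from 6.46, 5.43 and 3.69 to 7.77, 6.61 and 7.87 (2.23, SE 0.60) and a fall from 9.33, 9.06 and 8.89 to 7.27, 7.69 and 8.19 (-1.38, SE 0.43). The larger fall (ENSMMUT00000038127) was from 7.43, 4.44 and 7.06 to 4.47, 3.99 and 3.79 (-2.22, SE 0.68), with overlap because control 8 was low. Of the pair of 7SK RNAs, which hold the elongation factor P-TEFb in reserve, ENSMMUT00000035137 rose from 4.12, 4.98 and 6.31 to 7.71, 7.30 and 6.83 (2.14, SE 0.52), while ENSMMUT00000050317 fell from 7.24, 7.18 and 7.35 to 5.91, 6.25 and 5.25 (-1.45, SE 0.39). The 5S ribosomal RNAs were likewise divided, 2 higher and 2 lower, and the smallest p of the comparison belonged to the copy that rose from 8.96, 8.07 and 8.84 to 10.28, 10.27 and 11.02 (ENSMMUT00000050624, 1.90, SE 0.40, unadjusted limma p 0.000288, exact p 0.1). The 5S copy with the larger fall (ENSMMUT00000036386) went from 5.35, 6.95 and 5.35 to 4.17, 3.59 and 4.17 (-1.91, SE 0.50). Of 5 signal recognition particle RNAs 3 were higher, by at most 1.66 (SE 0.47), and 2 lower, by at most 1.23 on the log2 scale (SE 0.38).

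Small nucleolar RNAs, which guide chemical modification of ribosomal and spliceosomal RNA, gave 6 rises and 3 falls. Z17 rose from 5.57, 5.26 and 5.16 to 7.23, 7.25 and 6.65 (1.72, SE 0.40), and SNORA77 fell from 5.81, 7.51 and 5.59 to 4.91, 3.89 and 4.50 (-1.86, SE 0.52). The 8 microRNA transcripts comprised 2 rises and 6 falls, and 5 of the 6 falls concerned microRNAs without a name. miR-507 rose from 3.66, 4.89 and 5.36 to 6.06, 6.18 and 7.76 (2.03, SE 0.64), and miR-765 fell from 5.73, 5.22 and 6.18 to 4.84, 3.78 and 3.97 (-1.52, SE 0.43). Among the microRNAs, the largest fall without overlap was that of one without a name (ENSMMUT00000050386), from 7.16, 5.76 and 6.83 to 4.80, 4.39 and 4.76 (-1.94, SE 0.53). A mitochondrial transfer RNA fell by 1.46 (SE 0.39), and a U1 and a U4 spliceosomal RNA fell by 1.28 (SE 0.43) and 1.11 (SE 0.37) on the log2 scale.

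**Figure D4:**
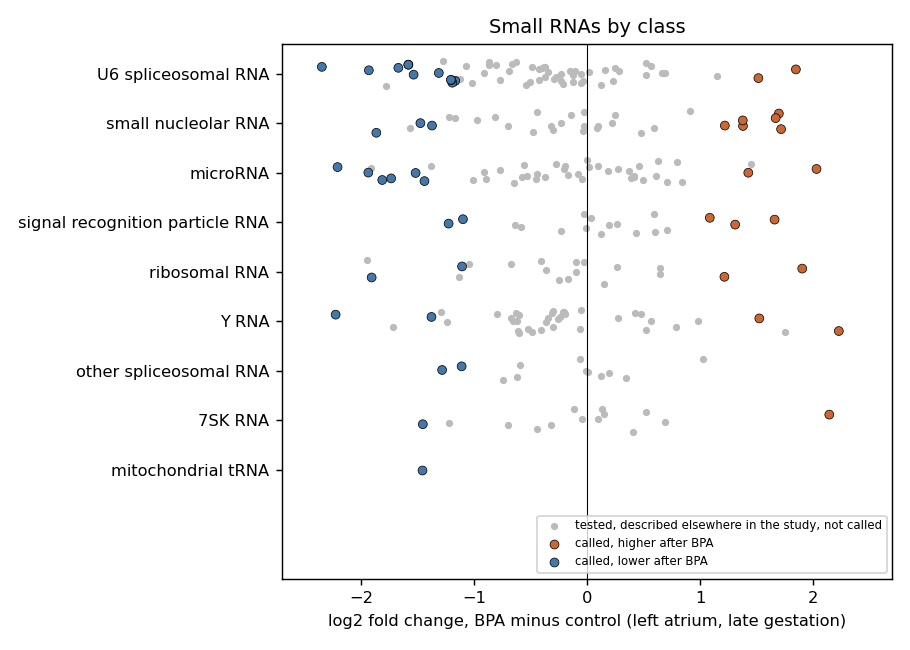
Log2 fold changes (LG BPA minus LG control in LA) of non-coding RNAs by class, with called transcripts of the study's list for this comparison in colour, tested transcripts of the same classes from its other lists in grey, and vertical scatter within a class only to separate points. Within U6, Y, 7SK, 5S ribosomal and signal recognition particle RNA called copies lie on both sides of 0, and the grey U6 and Y points lie mostly below it (36 of 48 and 26 of 34).

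Non-coding RNAs that the study listed only for other comparisons, and that were therefore not among the calls, were also examined. Of 248 such transcripts 192 were tested in LA, and 11 had an unadjusted limma p of at most 0.05 (3 higher and 8 lower), a share near the 5.47% of all transcripts tested. Their median fold change was -0.20 and 126 of them (65.6%) were below 0, against 50.2% of all 7903 transcripts tested. For U6 the median was -0.32 with 36 of 48 below 0, and for Y RNA it was -0.31 with 26 of 34 below 0. These lists hold transcripts that the study had called in the other tissues, so the medians there are partly set by that choice and are given only as descriptions. In LG the U6 median was -0.33 in RA, -0.30 in RV and -0.02 in BFM but 0.35 in LV, and the Y RNA median was -0.41 in RA, -0.18 in RV and -0.15 in BFM but 0.50 in LV. In EG LA they were -0.19 for U6 (60.4% below 0) and 0.00 for Y RNA. MicroRNAs from these lists were nearer to 0, at a median of -0.06. The mean level over all 248 was 6.19, 6.05 and 6.17 in the controls and 5.91, 6.07 and 5.96 after BPA, so fetus 11 lay between the controls while fetuses 10 and 12 lay below them. In 38 of the 86 called transcripts at least 1 group had a mean below 4.93, the mean of the arrays' 25th percentiles, that is, near the low end of the scale.

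The LA effect of BPA was then compared between windows, which also differed in age, mode of delivery and maternal serum BPA. In EG, 46 of the 7903 transcripts (0.582%) met the criteria. Of the 86 LG transcripts 3 were also called in EG, which is 3.49% of the LG calls and 6.52% of the EG calls, and all 3 were multi-copy RNAs. These were both 7SK RNAs, each with the opposite direction in EG (-1.68 for ENSMMUT00000035137 and 1.17 for ENSMMUT00000050317), and a U6 RNA that was lower in both windows (ENSMMUT00000033983, -1.25 in EG and -1.54 in LG). The 49 transcripts that rose in LG had a median EG fold change of -0.16, and the 37 that fell one of 0.02, against -0.04 for all transcripts tested. The 12 white blood cell transcripts had EG fold changes from -0.67 to 0.51. Their mean level in the 6 EG fetuses was 5.83 to 6.14, beside 5.88 to 6.23 in the LG controls. That the LG BPA fetuses lay above both follows from how the 12 were chosen. Without fetus 3, 53 transcripts met the criteria in EG (0.671%), and 2 of the 86 were among them, the same U6 RNA (-1.43) and a Y RNA (ENSMMUT00000038127, -2.55), but neither 7SK RNA. The median EG fold changes of the 49 and the 37 were then -0.12 and -0.03, against -0.03 for all transcripts tested. This alternative for EG and for the window comparisons was chosen after seeing the data.

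The difference between the LG and EG effects was tested directly, and 97 of the 7903 transcripts (1.23%) met the criteria, with a smallest adjusted p of 0.432. The members had been called for their LG effect in the same fit, which favours a large difference, so these values are descriptions of the members. Among the described proteins past the criteria, ADH7 had the largest difference, with 1.50 in LG against -0.86 in EG (difference 2.36, SE 0.49, adjusted p = 0.546). MHC class I antigen, CNTN6, CSF2RB and NUDT11 differed by 1.48 to 2.11 and MCTP2 by -1.90. ALAS2 and CD52 differed by 2.88 and 2.75 but missed the p criterion (adjusted p = 0.756 for both). Of the non-coding RNAs the rising 7SK and 5S copies had the smallest p, with differences of 3.82 and 2.98 (adjusted p = 0.432 for both). Without fetus 3 the count over all transcripts was 83 and the smallest adjusted p 0.827. Of the 29 members past the criteria 25 remained so, ADH7 (2.08), CNTN6 (2.39), CSF2RB (1.87), NUDT11 (1.60) and the rising 7SK (3.44) and 5S (3.09) copies among them. The other 4 no longer met them, and these included MHC class I antigen (1.79) and MCTP2 (-1.60).

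Some of the LG changes concerned transcripts that also differed between LG and EG controls in LA, which differ in age and in mode of delivery, a comparison that shares the 3 LG controls with the BPA effect, so the values are given side by side only. CNTN6 was at 7.44, 8.54 and 6.76 in EG controls, at 3.75 to 4.69 in LG controls and at 5.42 to 6.49 in LG BPA fetuses. Its LG minus EG control difference was -3.34 (SE 0.46) and its BPA effect 1.88. GCNT2 and MHC class I antigen had control differences of -2.03 and -2.02 beside BPA effects of 1.73 and 1.74. In the other direction, PSTPIP2 and CPNE6 had control differences of 1.80 and 1.08 beside BPA effects of -1.28 and -1.12. CFD ran otherwise, higher in LG than in EG controls (1.63) and higher after BPA (1.30). Without fetus 3 the control differences were -3.75 for CNTN6, -1.85 for GCNT2, -1.70 for MHC class I antigen, 1.53 for PSTPIP2, 0.91 for CPNE6 and 1.60 for CFD, so none changed direction.

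Whether the LA changes were shared with other tissues of the same fetus numbers was examined next. In the right atrium (RA), prepared and amplified in the same way, 41 of 9329 transcripts (0.439%) were called in LG. Of the 86 LA transcripts 77 were tested there and 1 was called, a signal recognition particle RNA (ENSMMUT00000050671, 1.27 in RA and 1.08 in LA). None of 82 was called by limma in the left ventricle (LV), where 0.84% of all transcripts tested were called, and 7 of the 82 had an unadjusted p of at most 0.05 (4.54% of all transcripts tested). In the right ventricle (RV) 2 of 71 were called (0.549% of all tested), both U6 RNAs lower there too (-1.36 and -1.68). In BFM 1 of 48 was called (0.825% of all tested), the bright unnamed protein described above. That transcript was higher after BPA in all tissues, with 1.49 in LA, 1.07 in RA, 1.10 in LV, 0.80 in RV and 1.05 in BFM, but only the LA and BFM values met the criteria.

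The other tissues were taken, by their numbers, to come from the same fetuses. LA and RA of a number deviated together from their group means, so values of transcripts chosen in LA are not independent of that choice there and are given as descriptions. The 22 described proteins that rose in LA had median fold changes of 0.39 in RA, 0.20 in LV, 0.30 in RV and 0.06 in BFM, against 0.00 in RA, 0.07 in LV, 0.04 in RV and 0.01 in BFM for all transcripts tested in LA. For the 12 white blood cell transcripts the median was 0.26 in RA, 0.07 in LV, 0.40 in RV and 0.07 in BFM, and the mean level over them in RA was 6.37, 6.74 and 6.58 in the controls and 6.77, 6.77 and 6.92 after BPA, so fetus 10 did not stand out there. ALAS2 was 0.89 in RA, 1.15 in LV and 0.96 in RV, none of them called. ADH7 was 1.10 in RA and 1.16 in LV, and MCTP2 -1.10 in RA and -1.56 in LV, also without a call.

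**Figure D5:**
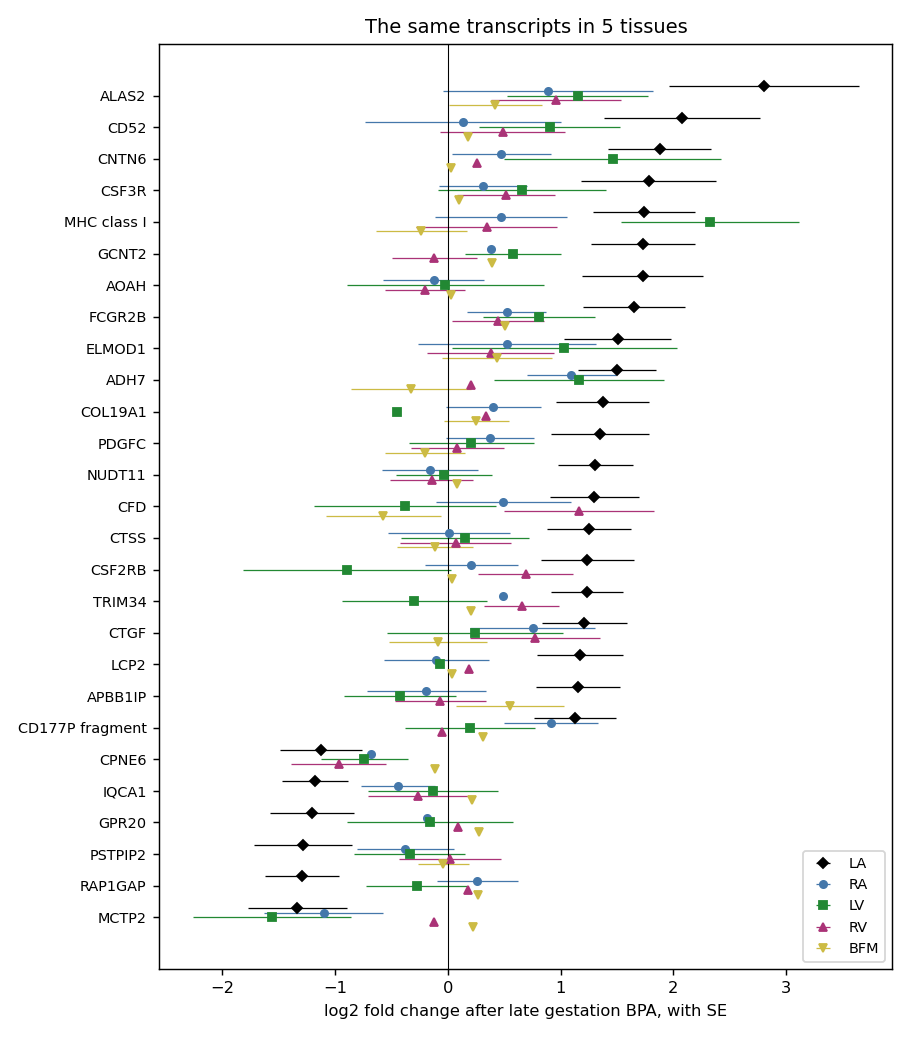
Log2 fold changes after LG BPA of 27 of the 28 described proteins called in LA, in LA, RA, LV, RV and BFM, with bars for the limma SE where the transcript passed the filter on variation in that tissue and no bar where it did not. Of the 108 points of the other tissues 75 lie between 0 and the LA value. MHC class I antigen in LV (2.33) and MCTP2 in LV (-1.56) lie beyond it, and the rest lie on the opposite side of 0. The transcripts were chosen in LA and no share over all transcripts is given, so agreement between tissues is not read from this count.

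The difference between the LA and RA effects was also tested directly. It met the criteria for 33 of 11832 transcripts (0.279%) without a block and for 58 (0.49%) with the fetus as a block, with none at an adjusted p of 0.05 in the fit without a block, where 258 (2.18%) had an unadjusted p of at most 0.05. Without a block and without BPA fetus 10 the count was 130, and without BPA fetus 12 it was 50. The members had been called on the same LA arrays, which favours a large difference here too. Among the described LA proteins RAP1GAP met the criteria in both fits (-1.29 in LA, 0.26 in RA, difference -1.55), and so did the 5S copy that rose in LA (1.90 in LA, -0.63 in RA, difference 2.53) and miR-765 (-1.52 in LA, 0.61 in RA, difference -2.13). For ALAS2 and CD52 the differences were 1.92 and 1.95, and they were not called in either fit.

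Several genes that the study followed individually did not meet the criteria in LG LA. Myosin-6 had a fold change of 0.10 and thyroid hormone receptor beta one of -0.11, and both failed the filter on variation, as did glycogenin-1 (-0.25), the primer of glycogen synthesis. PDK4, which restrains glucose oxidation, was 0.22 (SE 0.48, limma adjusted p = 0.972), with levels of 8.96 to 10.21 in the controls and 8.82 to 10.46 after BPA. For miR-224 the value was 0.28 (SE 0.45). miR-205 was at 5.78, 4.24 and 4.47 in the controls and 3.77, 3.95 and 4.04 after BPA, without overlap, but its fold change of -0.91 (SE 0.49, limma adjusted p = 0.884) did not pass.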

How the data were processed

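Transcript levels of LA, RA, LV, RV and BFM were taken from the deposited series table, whose log2 values the authors made by RMA within each tissue (background correction, quantile normalization and median polish of NimbleGen intensities). Scanner intensities were not used here, so signal over background is unknown, and precision is limited by how many arrays there are. Because tissues were normalized apart, levels were set side by side only within a tissue. Groups came from the sample titles, and p-values measure the spread between fetuses.

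Group means were fitted per tissue over 12 arrays with moderated tests in limma 3.58.1 (R 4.3.3), on transcripts with an interquartile range of 0.5 or more. The LG effect, the EG effect, their difference and LG against EG controls were contrasts of that fit, and the LA effect minus the RA effect was fitted on the 12 LG atrial arrays. Single transcripts were also given an exact two-sided permutation test over 10 splits. LA and RA of a number were taken to be the same fetus. Deviations from the group means correlated by 0.104 to 0.307 within the 6 LG fetus numbers (median 0.226) and by a median of -0.056 between different numbers, so the fetus was also used as a block.

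Descriptions came from the study's supplementary lists, which name 579 transcripts, and gene symbols were assigned from those descriptions. The fold changes and p-values that those lists hold were not used. Members and lists were chosen with earlier results of these data known. Named were every described protein in the study's list for LG LA, the largest rise and fall without overlap in each class of non-coding RNA there, every called transcript outside it, the erythroid, leukocyte and matrix transcripts of the other lists, and the genes the study followed. Of the described proteins 1 is counted but not reported here. KCNA5, SNORD41, the transcripts just outside the criteria, the unnamed protein ENSMMUT00000033373, the IFIT1-like protein, miR-765, the Y RNA ENSMMUT00000038127 and the copies called in other comparisons were named after their values were seen. The alternatives changed the variation filter, the variance model, the normalization, the removal of low transcripts, array weights (statmod 1.5.0), the arrays fitted and the thresholds, and left out each fetus with the tested set kept. The fits were tested on simulated data.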

Additional observations from a re-analysis of the deposited data

Results flagged for a closer look

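The LG minus EG difference in the effect of BPA in LA met the call criteria in limma for the following transcripts named above. All had an adjusted p of 0.432 or more, they had first been chosen for a large LG effect in the same fit, and 1.23% of all transcripts tested met the same criteria. Among described proteins the LG minus EG difference was 2.36 for ADH7, 2.11 for MHC class I antigen, 1.98 for CNTN6, 1.80 for CSF2RB, 1.48 for NUDT11 and -1.90 for MCTP2. Among non-coding RNAs with a rise in LG it was 3.82 for the 7SK RNA ENSMMUT00000035137, 3.40 for miR-507, 3.38 for SNORD41, 2.98 for the 5S ribosomal RNA ENSMMUT00000050624, 2.36 for the U6 RNA ENSMMUT00000048869 and 1.88 for the small nucleolar RNA Z17. Among those with a fall in LG it was -2.86 for the 5S ribosomal RNA ENSMMUT00000036386, -2.62 for the 7SK RNA ENSMMUT00000050317, -2.55 for SNORA77 and -1.84 for the signal recognition particle RNA ENSMMUT00000051074. The transcript without a description (ENSMMUT00000003330) had the largest difference, 5.32, with EG fold change -2.14 and LG fold change 3.18. Without fetus 3, an EG control whose array stood apart, 14 of these 17 still met the criteria. The 3 that did not were MHC class I antigen (1.79), MCTP2 (-1.60) and ENSMMUT00000003330, whose difference was 4.34 with an EG fold change of -1.16.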

How the results depend on the processing

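Of the counts, those for the LG effect in LA were 86 in all, 49 higher and 37 lower, beside 97 for the LG minus EG difference and 33 for the LA minus RA difference. At an adjusted p of 0.05 each of these became 0 in limma. With an interquartile range of at least 1 they were 21, 11, 10, 31 and 6, on fewer transcripts tested. With no filter on variation the LG minus EG count rose to 212 and the LA minus RA count to 58, and array weights gave 53 for LA minus RA. With the fetus as a replicate block the LA minus RA count was 58. With 1 fetus left out at a time the LG effect counts ran from 75 to 142 in all, 31 to 96 higher and 24 to 63 lower, the LA minus RA count from 38 to 130, and the LG minus EG count stayed within 1.5 times. The total was 142 without BPA fetus 11, the rises were 31 without control 8 and 96 without BPA fetus 11, the falls were 63 without control 9 and 24 without BPA fetus 12, and the LA minus RA count was 130 without BPA fetus 10 and 50 without BPA fetus 12. Rises made up 57.0% of the calls with all fetuses, 36.05% without control 8, 43.8% without control 9, 50% without BPA fetus 10, 67.6% without BPA fetus 11 and 68% without BPA fetus 12. Fitting the LG arrays alone gave 49.4%. Trended and robust variances, further quantile normalization, median centring, removal of low transcripts and no fold criterion left all 5 counts within 1.5 times, although not every call was kept, and of the 12 white blood cell rises 7 were kept with trended and robust variances, 4 when only LG arrays were fitted and 1 under the stricter interquartile range. ADAM28, a leukocyte protease that was not called (-0.44), ran from -0.7857 without control 9 to 0.0154 without control 8. The cause was not tested in any of these cases.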
